A study of Mus musculus with 3 samples.

Results

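The tumour suppressor p53, encoded by Trp53, is a transcription factor that is kept at a low level by its targets Mdm2 and Mdm4 and is stabilised when DNA is damaged or the cell is stressed. It then switches on genes that stop the cell cycle, repair DNA or start apoptosis. Inhibitors of the cyclin-dependent kinases (CDKs) hold the retinoblastoma protein Rb1 in its active form, and in cultured mouse embryonic fibroblasts (MEF) the products of Cdkn2a and the p53 target Cdkn1a are known for the growth arrest that follows stress and prolonged culture. The 35 genes described here are Trp53 with its regulators (6 genes), CDK inhibitors with Rb1 (6 genes), growth arrest targets (8 genes), stress and survival targets (5 genes), apoptosis targets (6 genes) and DNA repair targets (4 genes). They were chosen by name as p53 targets and cell cycle inhibitors, with earlier results of these data known. All 35 were found by gene name or accession among the 35200 gene names of the arrays.

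MEF are primary cells grown from minced mid-gestation embryos, here of C57BL/6 mice, and n-butylidenephthalide (BP) is a small molecule of the medicinal root Angelica sinensis. Cells were grown without BP (control) or in medium holding BP at 10 µg/ml (BP10) or 40 µg/ml (BP40), and the RNA of each culture was read on 1 Agilent mouse array, 3 in all. GEO records no treatment for the control, whereas the study's text on the arrays names DMSO, and the exposure time of these cultures is not given in the sources used here. With 1 array per condition no p-value or SD between cultures can be given, and each ratio compares 2 arrays.

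The level of a gene is the log2 signal of its probe minus the 75th percentile of the array's gene spots, and a difference between 2 levels is a log2 ratio. The share of spots that stood well above background was 81.7% for the control, 68.3% for BP10 and 69.1% for BP40. The arrays shared a slide, but the control was scanned in a session of its own, so for BP10 or BP40 against the control the effects of BP and of the scan session cannot be told apart; BP40 and BP10 shared a session. In addition, the scanner software had divided the BP10 and BP40 signals by a fitted spatial trend, between 0.684 and 1.11 on BP10 and between 0.698 and 1.08 on BP40, and had left the control signals undivided. The 8 spike-in controls that were read on all arrays had a median log2 ratio of -0.04 for BP10 and 0.80 for BP40 against the control after the same scaling. All 10 fibroblast markers were above background on all 3 arrays, as were 8 of 8 macrophage markers. So were 4 of 6 epithelial, 4 of 5 endothelial and 4 of 6 skeletal muscle markers. The epithelial markers Epcam and Cdh1 and the endothelial marker Cdh5 were below background on every array.

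The probes of 5 genes on which the results turn are shown by the first 30 of their 60 bases, in lower case and in the order of the array design, with the mm9 coordinates of the whole probe. They are shown because different probes of Cdkn1a, Cdkn2a, Trp53inp1 and Polk gave different ratios, so the sequence states which part of the gene was read, and because Gdf15 had the largest ratio of the 35 genes at BP40.
Gdf15, chr8:73153293-73153352: ctgggtggatggattgtgtatttatttaaa
Cdkn1a, probe printed 10 times, chr17:29237377-29237436: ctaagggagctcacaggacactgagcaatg
Cdkn1a, second probe, chr17:29235299-29235358: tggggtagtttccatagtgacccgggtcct
Cdkn1a, probe of another transcript, chr17:29227986-29228045: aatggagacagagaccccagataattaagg
Cdkn2a, chr4:88920405-88920464: ggcatgagaaactgagcgaaggcggccgcg
Cdkn2a, second probe, chr4:88920543-88920602: cttctagcgatgctagcgtgtctagcatgt
Trp53inp1, chr4:11101174-11101233: gtgtgtttatgggcacaatgttttctctca
Trp53inp1, second probe, chr4:11092530-11092589: aactcctgtcctggtctcagtgaggcgagt
Polk, chr13:97251653-97251712: tgtgagcagatgcagttagaatcggccatg
Polk, second probe, chr13:97256835-97256894: aagtaaaaactcgtgcatctaccgttccgg

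Few of the 35 genes passed 2-fold in any comparison. At 2-fold, 1 gene was up-regulated and 0 were down-regulated in BP10-treated MEF cells, against 2.59% and 10.3% of all 35200 genes. In BP40-treated cells 1 was up-regulated and 0 were down-regulated, against 2.51% and 9.03%. Between the doses, 2 were higher and 0 lower in BP40 than in BP10, against 1.88% and 1.77%. The up-regulated genes were Polk at BP10 and Gdf15 at BP40, and those higher in BP40 than in BP10 were Gdf15 and Sesn3.

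Many genes of the array are dim, and of the 35 genes all were above background on all 3 arrays. A 1.5-fold threshold was therefore also read on the 10928 genes above background on all arrays with a mean level of 0 or above, which hold 30 of the 35 genes; Mdm4, Ppm1d, Cdkn2c, Ddb2 and Rrm2b fall below that level. At BP10, 3 of the 30 were up-regulated at 1.5-fold (10% against 3.55% of the 10928) and 2 were down-regulated (6.67% against 6.88%). At BP40, 5 of the 30 were up-regulated (16.7% against 5.32%) and 0 were down-regulated (against 4.53%). In BP40 against BP10, 4 were higher (13.3% against 7.82%) and 1 was lower (3.33% against 2.93%). These shares rest on 30 genes picked by name with earlier results of these data known. They carry no test, and they depend on the processing. The count of 5 at BP40 was 1 with normexp background correction (against 3.91% of the 10928). It was 1 without the spatial correction on any array (against 1.69%) and 1 with it on every array (against 1.73%). In the same order of settings, 1, 2 and 4 of the 30 were down-regulated at BP40, against 4.67%, 9.89% and 12.3% of the 10928.

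Over the 30 genes the log2 ratio had a median of 0.02 at BP10 and 0.23 at BP40, beside -0.10 and 0.06 over the 10928 genes. For BP40 against BP10 the medians were 0.26 and 0.16. BP40 was above BP10 in 20 of the 30 genes (66.7%), beside 68.5% of the 10928. Both doses were above the control in 15 of the 35 genes and below it in 10. In 8 the ratio was below 0 at BP10 and above 0 at BP40, and in Sesn2 and Perp it was the other way round. The level was lowest on the control and highest on BP40 in 9 genes, namely Mdm2, Trp53inp1, Btg2, Gdf15, Phlda3, Tnfrsf10b, Gadd45g, Xpc and Rb1, and the order was the opposite in Trp53, Mdm4 and Apaf1.

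**Figure D1:**
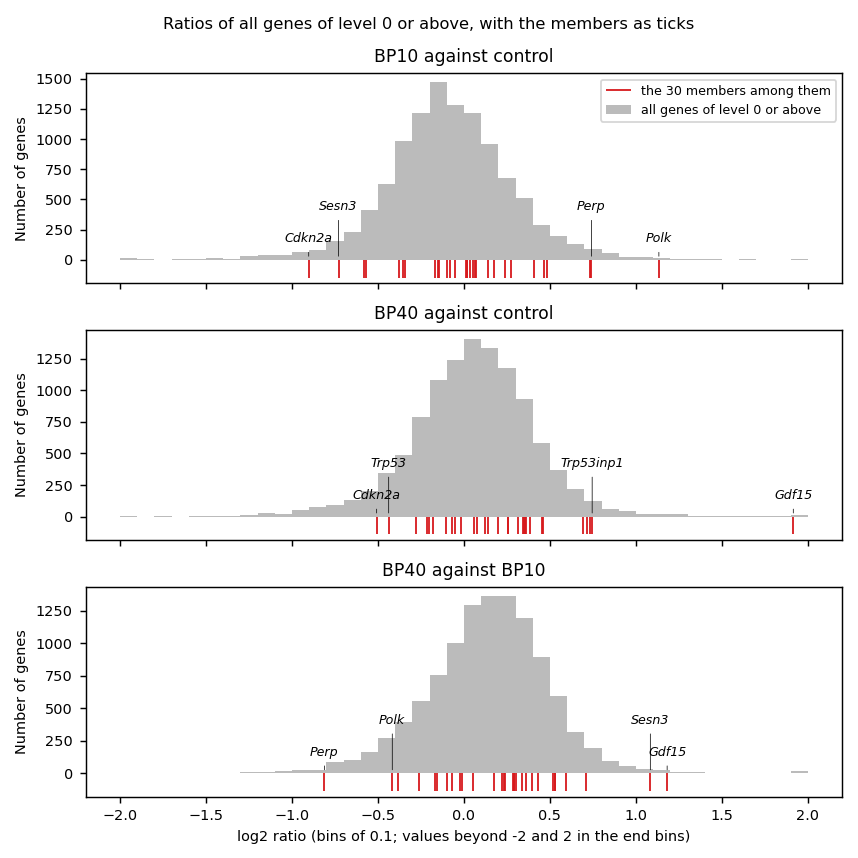
Number of genes (y axis) by log2 ratio (x axis, bins of 0.1) for the 10928 genes above background with a mean level of 0 or above, in grey, for each of the 3 comparisons of 1 array with 1 array. Red ticks under each histogram mark the 30 genes of the p53 list among them: for BP40 against control they run from -0.51 (Cdkn2a) to 1.91 (Gdf15, at the far right), and none reaches the lower tail.

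Trp53 itself was lower at the higher dose. The control read 0.73, BP10 0.68 and BP40 0.30, each as the mean of 2 spots. The log2 ratio was -0.05 at BP10 and -0.44 at BP40, or 0.738 times the control signal at BP40. On BP40 the 2 spots read 0.19 and 0.41, so both lay below the lowest spot of the other arrays, 0.67. The ratio at BP40 stayed below 0, from -0.64 to -0.28, in 7 settings (the one used here, 5 other scalings or background corrections, and the median over a gene's probes), whereas at BP10 it ranged from -0.29 to 0.10. For a gene with a single probe, Trp53 among them, the last of these settings repeats the first.

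The 2 genes that restrain p53 differed in direction. Mdm2, the ubiquitin ligase that degrades p53 and is itself switched on by p53, had levels of 5.03 (control), 5.17 (BP10) and 5.76 (BP40). Its log2 ratio was 0.14 at BP10 and 0.73 at BP40, which is 1.66-fold, and it was above 0 in all 7 settings at BP40 (0.38 to 0.89) but not at BP10 (-0.37 to 0.29). Mdm4, a relative of Mdm2 that binds p53, had levels of -1.38, -1.39 and -1.94, with ratios of -0.01 at BP10 and -0.57 at BP40. A second Mdm4 probe read 0.00 at BP40, so the lower value rests on 1 probe.

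By the probes used, the other regulators stayed within 1.5-fold. Ppm1d, the phosphatase Wip1 that switches off the p53 response, had levels of -0.24, -0.34 and 0.12 on control, BP10 and BP40. Pml, the organiser of the nuclear bodies that carry its name, had levels of 2.81, 2.70 and 2.93, with ratios of -0.10 and 0.12. A second Pml probe gave 0.05 and -0.18, so no direction can be stated. Atm, the kinase that signals DNA breaks to p53, had levels of 0.18, 0.42 and 0.26. A second Atm probe, printed 10 times and dimmer, read -2.67 ± 0.10 (SD between 9 spots) on the control, -1.80 ± 0.07 (10 spots) on BP10 and -2.27 ± 0.14 (10 spots) on BP40. Its ratios of 0.88 at BP10 and 0.40 at BP40 exceeded those of the first probe, 0.24 and 0.08, and all had the same sign. At BP10 the second Atm probe alone was past 1.5-fold.

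By the probes used, Cdkn2a, Cdkn2b, Cdkn2c and Cdkn1b were lowest on the BP10 array, with BP40 between BP10 and the control, and the second probes of Cdkn2b and Cdkn1b gave another order. Cdkn2a, which encodes p16INK4a and p19ARF, had levels of 3.33 on the control, 2.43 on BP10 and 2.83 on BP40. This is a log2 ratio of -0.90 at BP10, or 0.535 times the control, and of -0.51 at BP40. A second, dimmer probe of the same transcript read -1.16, -2.49 and -1.64, giving -1.33 and -0.48, so both probes were lowest on BP10. Over the 7 settings Cdkn2a was below the control, from -1.28 to -0.75 at BP10 and from -0.78 to -0.35 at BP40. It passed 2-fold at BP10 in 3 settings by the probe used and in 1 more, the median over probes, through the second probe.

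Cdkn2b, the neighbour of Cdkn2a that encodes p15INK4b, had levels of 4.09, 3.75 and 3.99. Its ratios were -0.34 and -0.11, and a second probe gave 0.62 and 0.15, so no direction can be stated for Cdkn2b. Cdkn2c, which encodes p18INK4c, had levels of 0.02, -0.46 and -0.06. Cdkn1b, which encodes p27Kip1, had levels of 2.68, 2.11 and 2.40, with ratios of -0.57 and -0.28. The second Cdkn1b probe gave 0.15 at BP10 and -0.43 at BP40.

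Cdkn1a, which encodes p21 and is the best known p53 target among the CDK inhibitors, was slightly higher at BP40 on a probe printed 10 times. Its level was 4.55 ± 0.04 on the control, 4.38 ± 0.03 on BP10 and 4.90 ± 0.04 on BP40 (SD between 10 spots of 1 array). The spots ran from 4.48 to 4.58 on the control, from 4.32 to 4.42 on BP10 and from 4.85 to 4.95 on BP40, so the 3 arrays did not overlap. This spread is technical, and says nothing of the variation between cultures. The log2 ratio was -0.17 at BP10 and 0.36 at BP40, or 1.28-fold.

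The other Cdkn1a probes went the other way. The second read -2.77, -1.95 and -2.82 on control, BP10 and BP40, and the probe of another transcript read 0.20, 0.77 and 0.13. Their ratios at BP10 were 0.82 and 0.57, and at BP40 both were near 0, at -0.05 and -0.07. The 3 probes lie at different places of the gene, and whether they read different transcripts was not tested.

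Rb1, whose product binds E2F factors and blocks entry into S phase, was also read by 10 spots. Its level was 0.53 ± 0.08 on the control (10 spots), 0.55 ± 0.05 on BP10 (9 spots, 1 left out as an outlier by the scanner) and 0.98 ± 0.05 on BP40 (10 spots). The control and BP10 spots overlapped, and the lowest BP40 spot, 0.90, lay above the highest of both, 0.66. The ratio of 0.45 at BP40 is 1.37-fold and was above 0 in all 7 settings, from 0.26 to 0.61.

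**Figure D2:**
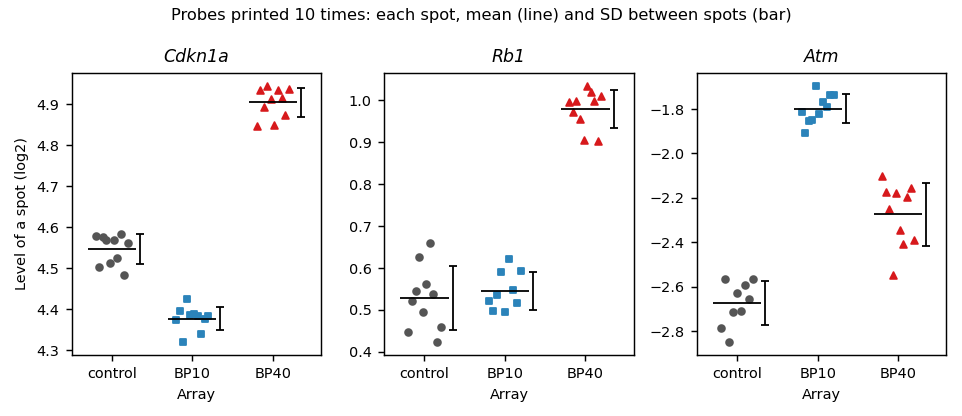
Level of each spot (y axis, log2, a separate scale in each panel) on the 3 arrays (x axis) for probes of Cdkn1a, Rb1 and Atm that are printed 10 times; lines are means and bars are the SD between spots. BP40 lies above the control for Cdkn1a and Rb1 without overlap, while the dimmer Atm probe is highest on BP10.

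Among the growth arrest targets, Gdf15 had the largest ratio of the 35 genes. Gdf15 is a secreted stress cytokine of the TGF-beta superfamily, switched on by p53 and by other stress pathways. Its level was 1.56 on the control, 2.30 on BP10 and 3.48 on BP40, with signals of 5150, 6879 and 13516 before scaling. The log2 ratio was 0.73 at BP10 (1.66-fold) and 1.91 at BP40 (3.77-fold), and 1.18 in BP40 against BP10, the pair scanned together. By size of the ratio at BP40, Gdf15 ranked 9 from the top among the 10928 genes. It was above the control in all 7 settings, from 0.56 to 0.89 at BP10 and from 1.76 to 2.07 at BP40. Gdf15 has 1 probe, so no second reading is at hand.

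Btg2, an antiproliferative gene and early p53 target, had levels of 1.52, 1.70 and 2.22 on control, BP10 and BP40. The ratio of 0.69 at BP40 is 1.62-fold and ranged from 0.32 to 0.85 over the settings. Ccng1, which encodes cyclin G1, had levels of 5.19, 5.47 and 5.45, with ratios of 0.27 and 0.25. With the spatial correction applied to every array the ratios were -0.03 and -0.02.

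The 3 Gadd45 genes, which encode stress sensors that bind p21 and MAP kinase kinases, differed in direction. Gadd45a, the member most closely tied to p53, had levels of 1.49, 1.13 and 1.44, with ratios of -0.35 and -0.05. Gadd45b had levels of 2.54, 3.001 and 2.74. Gadd45g had levels of 5.76, 6.17 and 6.22, with ratios of 0.41 and 0.46 that kept their sign in all 7 settings. The largest of these 3 genes' ratios, 0.46, is 1.38-fold at BP10 for Gadd45b and 1.37-fold at BP40 for Gadd45g.

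Plk2, a kinase of centriole duplication, and Zmat3, an RNA-binding p53 target, read below the control at both doses, within 1.5-fold. Plk2 had levels of 2.70, 2.12 and 2.48, and its ratios of -0.58 and -0.22 stayed below 0 in all settings. Zmat3 had levels of 3.65, 3.27 and 3.45, with ratios of -0.38 and -0.20 that also stayed below 0.

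Among the stress and survival targets 1 gene was above 1.5-fold at BP40. Trp53inp1, a p53 cofactor that promotes cell death and autophagy, had levels of 2.63, 2.66 and 3.37, so control and BP10 were alike and BP40 stood above both. Its ratio was 0.04 at BP10 and 0.75 at BP40, or 1.68-fold. The second Trp53inp1 probe, which lies at lower coordinates than the first and is dim, read -2.58, -1.40 and -1.39, with ratios of 1.17 and 1.18. Both probes were thus higher at BP40, and they differed at BP10.

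The sestrins are stress-induced inhibitors of the growth kinase mTORC1, and only Sesn3 of the 3 passed 1.5-fold in any comparison. Sesn3 is driven chiefly by FoxO factors. Its level was 0.24 on the control, -0.49 on BP10 and 0.59 on BP40, the lowest reading being BP10. The log2 ratio was -0.73 at BP10, 0.35 at BP40 and 1.08 in BP40 against BP10, and the last ranged from 1.04 to 1.14 over the settings. Sesn1, a p53 target, had levels of 0.27, 0.35 and 0.33. Sesn2, induced by p53 and by ATF4, had levels of 3.02, 3.07 and 3.001. Phlda3, a p53-induced inhibitor of the kinase Akt, had levels of 6.08, 6.14 and 6.42, with a ratio of 0.34 at BP40 that was above 0 in all settings.

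Of the apoptosis targets only Perp was past 1.5-fold by the probes used. Perp, a membrane protein of desmosomes and a p53 apoptosis effector, had levels of 0.02 on the control, 0.76 on BP10 and -0.06 on BP40. It was therefore higher on the BP10 array alone, with ratios of 0.74 at BP10 (1.67-fold) and -0.81 in BP40 against BP10. Fas, a death receptor, had levels of 0.21, 0.07 and 0.60 and a ratio of 0.38 at BP40. Tnfrsf10b, the mouse TRAIL receptor, had levels of 3.06, 3.08 and 3.41 and a ratio of 0.35. Both death receptors were near the control at BP10 and kept their sign at BP40 in all 7 settings.

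Ei24, a protein of the endoplasmic reticulum, had levels of 1.66, 2.14 and 1.97, with ratios of 0.48 and 0.31. Aen, a p53-induced nuclease, had levels of 5.57, 5.42 and 5.71. A second Aen probe that overlaps the first, shifted by 10 bases, gave 0.06 and 0.22 where the first gave -0.15 and 0.14. Apaf1, the core of the apoptosome, had levels of 0.87, 0.79 and 0.69.

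The DNA repair targets held the gene with the largest ratio at BP10. Polk encodes DNA polymerase kappa, which copies past bulky base adducts and is a target of p53 and the aryl hydrocarbon receptor in mouse cells. Its level was 0.46 on the control, 1.59 on BP10 and 1.17 on BP40, with log2 ratios of 1.13 (2.19-fold) and 0.72 (1.64-fold). The second Polk probe gave 0.79 and 0.73, so both were higher than the control at both doses. The size at BP10 ranged from 0.40 to 1.29 over the 7 settings, the lowest being the one without spatial correction on any array, and the 2-fold call was lost in 4 of them.

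Ddb2 and Xpc encode the damage sensors of nucleotide excision repair. Ddb2 had levels of -2.28, -2.41 and -1.45, so BP40 stood above both other arrays, with a ratio of 0.82 (1.77-fold) that ranged from 0.64 to 1.06. Xpc had levels of 0.03, 0.05 and 0.29. Rrm2b, the p53-induced subunit of ribonucleotide reductase, had levels of -2.71, -3.06 and -2.45, and its second probe was below background on all arrays.

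**Figure D3:**
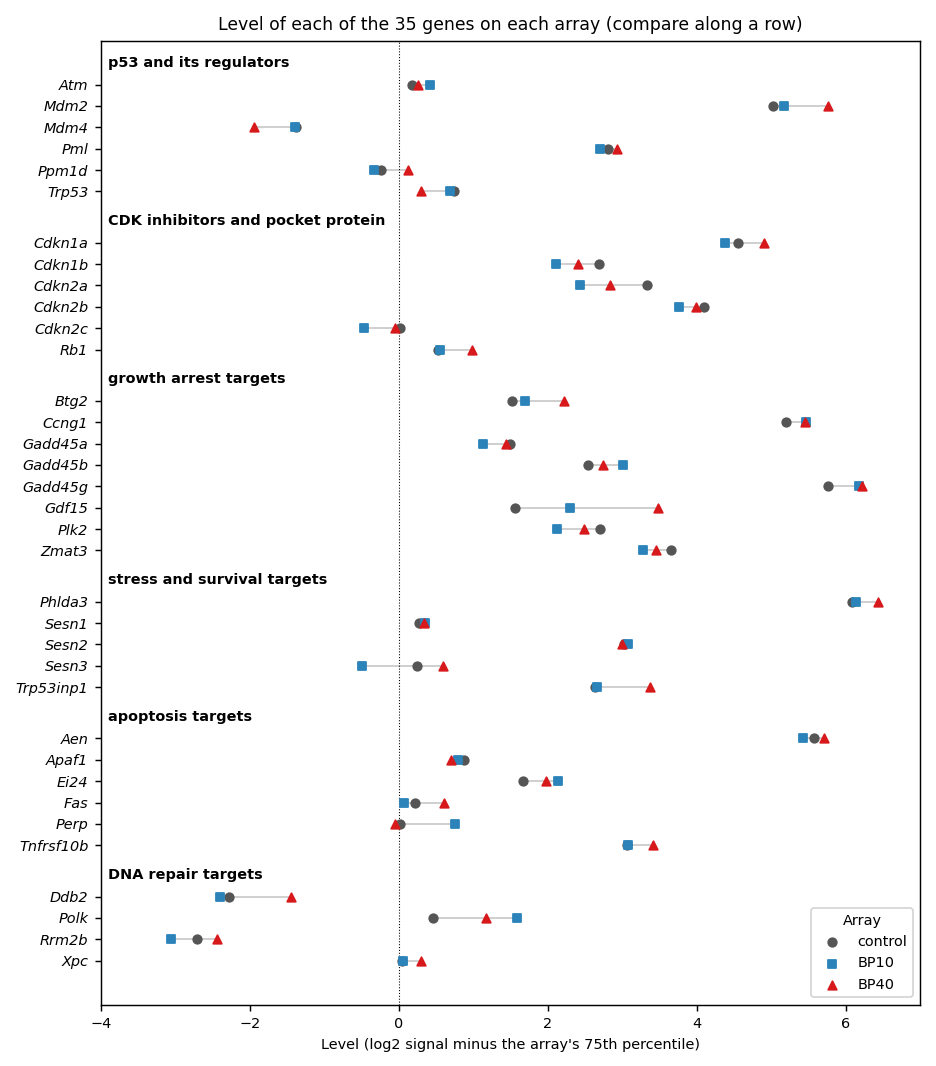
Level of each of the 35 genes (x axis, log2 signal minus the 75th percentile of the array) on the control, BP10 and BP40 arrays, grouped by role. Levels of different probes cannot be compared with each other, so the plot is read along a row: Gdf15 spans 1.56 to 3.48, and of the others only Polk and Sesn3 span more than 1.

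At BP40 the p53 targets formed a range without a clear break below Gdf15. Gdf15, Ddb2, Trp53inp1, Mdm2, Polk and Btg2 were each above 1.5-fold, Gadd45g (0.46), Fas (0.38) and Cdkn1a (0.36) were among those in between, and Gadd45a, Zmat3, Plk2, Perp, Sesn1, Sesn2 and Apaf1 lay between -0.22 and 0.06. Gdf15 and Ddb2 each have a single probe, so the median over probes repeats the value used, and the mean level of Ddb2 is below 0. Both genes were above 1.5-fold in all 7 settings. The other 4 were not: with normexp the ratio was 0.48 for Trp53inp1, 0.56 for Mdm2, 0.46 for Polk and 0.50 for Btg2, and without the spatial correction it was 0.30, 0.38, 0.28 and 0.32. At BP10 the same 6 genes had ratios of 0.73, -0.13, 0.04, 0.14, 1.13 and 0.18, so of them Gdf15 and Polk were also above 1.5-fold there. The scanner software's error model gave an SE of 0.204 to 0.226 for a log2 ratio of the 35 genes. By that measure of array error alone, 10 genes were more than 2 SE from 0 at BP10, 11 at BP40 and 14 in BP40 against BP10. No such count over all genes is set beside these, so they are not read as particular to the 35 genes.

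**Figure D4:**
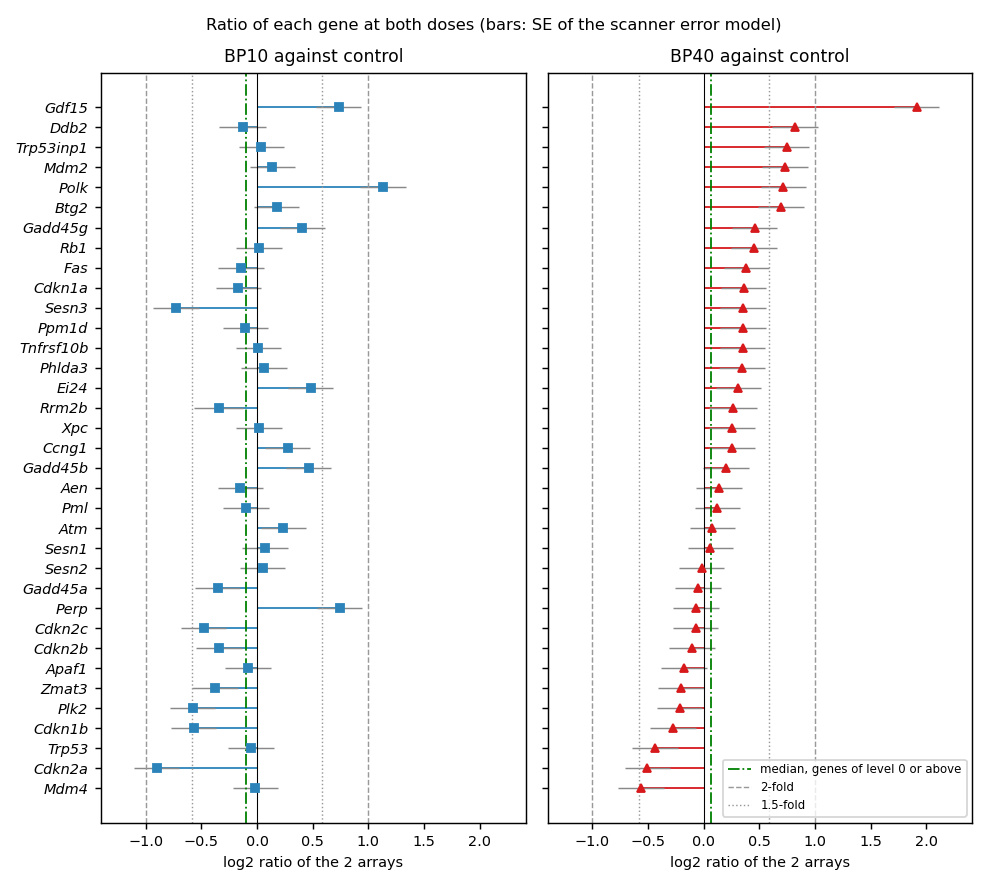
Log2 ratio (x axis) of each of the 35 genes at BP10 (left) and BP40 (right) against the control, in the order of the BP40 ratio; bars are the SE of the scanner's error model, the green line is the median of the 10928 genes of level 0 or above, and dashed and dotted lines mark 2-fold and 1.5-fold. At BP40 only Gdf15 (1.91) passes 2-fold, and at BP10 only Polk (1.13).

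A second probe above background on all arrays was at hand for 10 of the 35 genes, with 11 such probes in all. Its sign differed from that of the probe used in 7 of 11 cases at BP10 and in 5 of 11 at BP40. The ratios lay more than 0.5 apart in 6 cases at BP10 and in 1 at BP40. Among 4781 genes of the arrays with 2 such probes, the SD between the probes' log2 ratios had a median of 0.29 at BP10 and 0.22 at BP40. At BP10, 20 of the 35 genes had a ratio smaller in size than that SD, and 13 of the 35 had one at BP40.

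**Figure D5:**
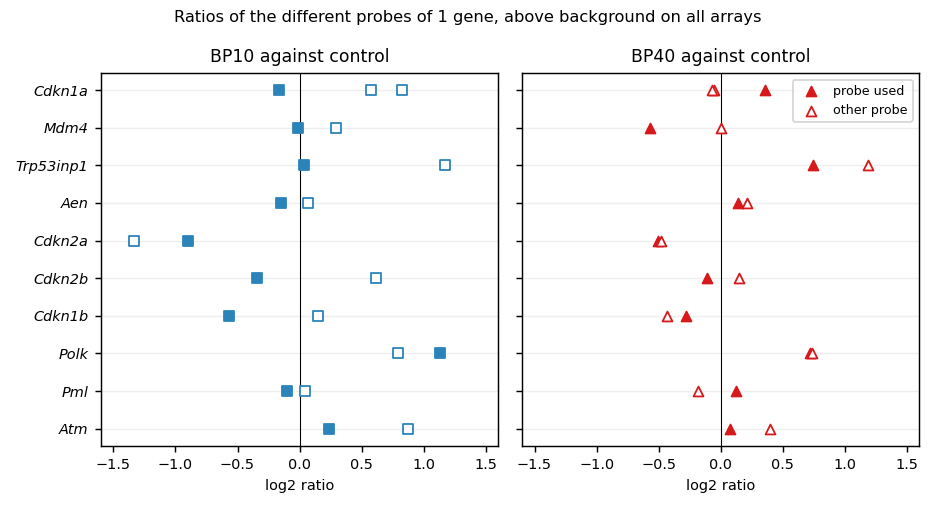
Log2 ratio (x axis) at BP10 (left) and BP40 (right) for the 10 genes with more than 1 probe above background on all arrays; filled symbols are the probe used and open symbols the others. Cdkn1a, Cdkn2b and Cdkn1b have probes on both sides of 0 at BP10, while both Polk probes lie above 0 and both Cdkn2a probes below 0 at both doses.

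The directions also depended on how the arrays were scaled. Relative to the values above, quantile normalization moved the median of all genes up by 0.19 (BP10) and 0.11 (BP40) on the log2 scale, scaling on probes above background, which adds 1 amount to every ratio of an array pair, moved it by 0.15 and 0.16, and normexp background correction by 0.14 and 0.18. Leaving out the spatial correction on every array moved it by -0.27 and -0.23, and applying it to every array by -0.28 and -0.25. Up-regulated genes made up 20.1% (BP10) and 21.7% (BP40) of all genes called at 2-fold, a share that was 52.8% and 55.1% with quantile normalization, 33.8% and 36.7% with scaling on probes above background, 32.7% and 46.3% with normexp, 7.58% and 9.80% without the spatial correction and 6.91% and 8.11% with it on every array. Over the 7 settings the ratio kept its sign in 15 of the 35 genes at BP10, in 21 at BP40 and in 27 for BP40 against BP10. Relative to all genes, the 35 genes stood higher by 0.21 at BP10 and 0.37 at BP40, and without the spatial correction by 0.21 and 0.35. Quantile normalization narrowed that distance to 0.08 (BP10) and 0.16 (BP40), and normexp to 0.06 and 0.12. Of all 35200 genes, 24902 were above background on all 3 arrays, whereas all of the 35 were. Among genes of level 0 or above, the 30 genes had medians of 0.02 (BP10) and 0.23 (BP40), beside -0.10 and 0.06 over the 10928.

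Other genes of the pathway were read from lists written beside the 35. At 2-fold, the share of all genes was 2.59% up and 10.3% down at BP10, and 2.51% and 9.03% at BP40. In BP40 against BP10 it was 1.88% and 1.77%. Of 33 other p53 pathway genes, 0 were up-regulated at 2-fold at either dose and 1 was down-regulated at BP40, and their median ratio was -0.10 at BP10 and -0.03 at BP40. The down-regulated gene was Igfbp3, which encodes an IGF-binding protein, with levels of 0.07, -0.48 and -1.08. Ptprv, a phosphatase, had a ratio of at most -1.27 in BP40 against BP10, a bound since BP40 was below background.

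Of 14 DNA damage signalling genes on the arrays, 0 were up-regulated at 2-fold at either dose. Only Chek1, the checkpoint kinase, was down-regulated, at BP10 and at BP40, with levels of -1.78, -3.33 and -2.81. Of all genes, 10.3% (BP10) and 9.03% (BP40) were down-regulated at 2-fold. Nbn, of the break-sensing complex, had levels of -0.29, 0.65 and -0.44, with a ratio of -1.09 in BP40 against BP10. Of 10 other cell cycle inhibitors, Cdkn1c, which encodes p57Kip2, was down-regulated at BP40, with levels of 2.18, 1.55 and 0.87.

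Of 30 proliferation genes, among them cyclins, Mcm helicase subunits and Mki67, 0 passed 2-fold in either direction at either dose. Their ratios ran from -0.49 to 0.57 at BP10 and from -0.31 to 0.44 at BP40, with medians of -0.04 and -0.03.

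Genes of other cell types gave the following. The summed signal of the 8 macrophage markers, as log2 relative to the 75th percentile, was 5.14 on the control, 4.87 on BP10 and 5.03 on BP40, and that of the 10 fibroblast markers was 10.54, 10.09 and 10.20. Most fibroblast markers read below the control: 0 of 10 were above it at BP10 and 2 at BP40, the median ratios were -0.47 and -0.63, and 3 and then 6 of 10 were down-regulated at 1.5-fold (30% and 60%, against 6.88% and 4.53% of the 10928 genes). Of the 8 macrophage markers 3 were above the control at BP10 and 4 at BP40, with median ratios of -0.30 and 0.09. Only Lyz2 of them was up-regulated at 2-fold, at both doses, with ratios of 1.101 and 1.26. Col3a1 of the fibroblast markers was down-regulated at BP40, with a ratio of -1.22. In bulk RNA, fewer cells of a type and less RNA per cell cannot be told apart, and the part of these markers in the ratios of the 35 genes was not tested.

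RefSeq promoters on the build GRCm38.p6, from 250 bases before to 50 after a transcription start, were at hand for 27 of the 35 genes, 35 promoters in all. A full p53 response element, searched by its name as a pair of 10-base half-sites up to 13 bases apart, occurred in 0.0731% of 32851 promoters of this length and among the 35 only in Cdkn1a, in the promoter of its upstream transcript. The promoter is shown because it holds the one full element, which is in capitals and spans positions -73 to -42 from the start.
Cdkn1a, upstream promoter, chr17:29090729-29091028, plus strand: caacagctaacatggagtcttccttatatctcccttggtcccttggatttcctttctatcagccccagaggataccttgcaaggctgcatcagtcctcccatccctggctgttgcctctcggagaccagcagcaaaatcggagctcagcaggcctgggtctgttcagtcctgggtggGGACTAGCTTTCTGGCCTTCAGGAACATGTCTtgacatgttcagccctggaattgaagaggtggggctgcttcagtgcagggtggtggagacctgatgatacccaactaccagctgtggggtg

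A single p53 half-site occurred in 8.36% of all promoters and in 12 of the 35 promoters (34.3%), belonging to 11 genes: Aen, Ccng1, Cdkn1a, Ei24, Gadd45a, Mdm2, Pml, Polk, Ppm1d, Sesn1 and Trp53. The half-site reads the same on both strands, and a full element counts here too. Since the genes were picked as p53 targets, the share is a description. Windows around the match (in capitals) are shown for 4 genes whose ratios differed, Mdm2 and Polk above 1.5-fold at BP40, Trp53 below the control and Gadd45a near it.
Mdm2, chr10:117710915-117710964, minus strand: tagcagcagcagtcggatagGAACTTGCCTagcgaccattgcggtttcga
Polk, chr13:96519389-96519437, minus strand: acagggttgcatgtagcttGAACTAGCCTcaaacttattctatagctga
Trp53, chr11:69580264-69580313, plus strand: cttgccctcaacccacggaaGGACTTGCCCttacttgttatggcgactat
Gadd45a, chr6:67037418-67037467, minus strand: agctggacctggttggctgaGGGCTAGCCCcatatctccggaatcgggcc

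The genes with a match did not share a direction. Neither promoter listed for Gdf15 held a half-site in these 300 bases. Ccng1 and Sesn1, each with a match, stayed within 1.5-fold at both doses. Sites outside this window were not searched, and whether a match bears on a ratio was not tested. The cyclic AMP response element TGACGTCA, on both strands, occurred in 1.79% of all promoters and in those of Btg2, Cdkn2b, Plk2 and Ppm1d, and the C/EBP-ATF element TGATGNAA in 3.97% and in those of Gadd45g and Polk. The antioxidant response element TGACNNNGC occurred in 12.4% of all promoters and in those of Cdkn1a, Cdkn1b, Cdkn2a, Gadd45g, Sesn2 and Trp53, and the AP-1 site TGANTCA in 7.81% and in those of Fas and Mdm4. A match is a run of letters in this window and shows no binding.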

How the data were processed

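The authors deposited the scanner output of 3 Agilent 1-colour arrays, made with Feature Extraction 10.5.1.1, 1 each for control, BP10 and BP40. The deposited intensity of each of 59305 gene spots is background-subtracted and not scaled between arrays; the spatial trend, a ratio that the deposited files give per spot, had divided it on BP10 and BP40 and not on the control. The series table holds the same intensities.

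Here log2 of the intensity minus the array's 75th percentile over gene spots was taken, outlier spots were left out, and spots of a probe were averaged. Control spots were left out of the tables. Of 55681 probes, 26425 were named by accession, 826 by alias and the rest by the array's own name, from the RefSeq table of GRCm38.p6. Of several probes of a gene, the one with the most arrays above background was used, and of these the brightest. Up- and down-regulated at 2-fold means an absolute log2 ratio of 1 or more and 1 or both of the arrays above background. Where only 1 was, the ratio is a bound against the lowest signal above background. The number of arrays limits the precision.

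Tools were Python 3.11.15, numpy 2.4.6, pandas 2.3.3, matplotlib, and R 4.3.3 with limma 3.58.1 for normexp (offset 50) and quantile normalization. The step that makes the 2-fold calls was run on simulated arrays with little noise. That run says nothing of how often a call on these 3 arrays is wrong. The 35 genes and the lists were chosen with earlier results of these data known. All 35 genes are given, in most detail those called and Trp53, Cdkn1a, Mdm2, Ccng1, Gadd45a, Cdkn2a, Cdkn2b and Btg2; of other lists the called genes are named, at most 6 each. Other probes are given where they differ in sign or by over 0.5. Other cell type lists were epithelial (1 of 6 down-regulated at BP40, Krt5), endothelial (1 of 5 down-regulated at BP40, Emcn) and skeletal muscle (0 of 6 called). Coordinates of probes are mm9; whether a probe lies in an exon or UTR was not analysed here.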

Additional observations from a re-analysis of the deposited data

Results flagged for a closer look

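Sesn3 stood on opposite sides of the control, with BP10 at -0.73 and BP40 at 0.35 on the log2 scale, and BP40 exceeded BP10 by 1.08. With 1 array per condition this difference was not tested. The second probe of Trp53inp1, not used for the gene, gave a log2 ratio of 1.17 for BP10 and 1.18 for BP40, where the probe used gave 0.04 and 0.75. Its levels of -2.58, -1.40 and -1.39 were above background on all 3 arrays.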

How the results depend on the processing

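No paired analysis was possible because there is 1 array per condition, and for that reason no array could be left out. A ratio or median was taken as moved when it shifted by more than the median SD between 2 probes of a gene, and a count when it shifted by over 1.5 times. Both settings of the spatial correction, and the 1.5-fold counts of the 30 genes under other settings, were added after seeing the data. For BP10 against control, where 1 of the 35 genes was up-regulated and 0 were down-regulated at 2-fold, normexp gave 0 and 1, no spatial correction on any array 0 and 1, spatial correction on every array 0 and 2, and the median of all probes 0 and 1; the gene down-regulated was Cdkn2a in each, joined by Plk2 with the correction on every array. Of all 35200 genes, 966 were down-regulated at BP10 with normexp, 5551 without the spatial correction and 5211 with it on every array. In the same order 470, 455 and 387 were up-regulated. For BP40 against control quantile normalization gave 2 up-regulated genes, Gdf15 and Ddb2, in place of 1. Over all genes it gave 1811 in place of 883. These counts are not read as particular to the 35 genes. At 1.5-fold the counts of all 35 genes were 3 up and 2 down at BP10, 6 up at BP40, and 6 higher and 1 lower in BP40 than in BP10, and at 3-fold 0 were up at BP10 and 0 higher in BP40 than in BP10. No share over all genes at 1.5-fold or 3-fold is set beside these counts, so they are given as counts only. The median ratio of the 35 genes at BP40, 0.25, was 0.0049 without the spatial correction and -0.015 with it on every array. The cause was not tested. Gdf15 was up-regulated at BP40 in every setting tried, 3-fold included. The deposited series table equals the scanner values, so it is counted in none of the following, nor is the median over probes for a gene with 1 probe. Of the counts and medians recomputed, 60 stayed within those limits and 18 moved, and of the single ratios of the 35 genes 481 stayed and 77 moved. The mean level is below 0 for Mdm4, Ppm1d, Cdkn2c, Ddb2 and Rrm2b.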
